A study of Rattus norvegicus with 6 samples.

Results

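The 75 potassium channel genes described here are all genes of the rat array whose platform symbol begins with Kcn, out of 14217 genes with a single symbol. They were covered by 126 of the 31042 probe sets tested, and each gene is represented by its probe set with the highest mean over the 6 arrays. By symbol they comprise 24 voltage-gated pore subunits, 7 silent voltage-gated subunits, 15 inward rectifiers, 11 two-pore channels, 5 calcium- or sodium-activated pore subunits and 13 accessory subunits. Messenger RNA was measured in the left ventricle of male Wistar rats, 18 weeks old, that had eaten 1 of 3 diets for 12 weeks and were fasted overnight before collection. The diets were a Western diet with docosahexaenoic acid, a long-chain fatty acid of fish oil (Western plus DHA), a Western diet without it (Western), and a control diet (Control). Each diet had 10 rats and 2 arrays, and each array carried RNA pooled from 5 rats, so the replicate is a pool and the spread between single rats is not seen. The design text gives left ventricular hypertrophy with few other disorders as the aim of the feeding. Values are log2 expression made with RMA, differences are between log2 means of 2 diets, and ± is the standard error of the limma fit unless SD is named.

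Potassium channels let potassium leave or enter a cell along its gradient, and in ventricular muscle they end the action potential and hold the resting potential. In rodent ventricle the early, rapid repolarisation is carried largely by the transient outward current, later repolarisation by delayed rectifiers, and the resting potential by inward rectifiers. Pore subunits work with accessory subunits that change their surface number and gating, and silent subunits make no channel alone but modify those of other families.

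None of the 75 genes passed the limma test in any of the 3 comparisons at an adjusted p under 0.05, in data where almost no probe set did. In Western plus DHA against Control 0 of 75 were called (0.00322% of all 31042 probe sets), with a lowest adjusted p of 0.562. In Western plus DHA against Western 0 of 75 were called (0.0% of all probe sets), with a lowest adjusted p of 0.983, and in Western against Control again 0 of 75 (0.0%), with a lowest adjusted p of 1. No other tool was run, and at an adjusted p under 0.1 the 3 counts were also 0. Under an unadjusted p of 0.05 lay 5 genes in Western plus DHA against Control (6.67%, beside 8.45% of all genes), 2 higher and 3 lower (4.46% and 3.99% of all genes). There were 3 in Western plus DHA against Western (4%, beside 3.52%), 2 higher and 1 lower (2.06% and 1.46%). Western against Control had 5 (6.67%, beside 1.98%), 3 higher and 2 lower (1.39% and 0.591%). An F test over the 3 diets put 4 genes under an unadjusted p of 0.05 (Kcne1, Kcnab3, Kcnq1 and Kcnj15; 4.13% of all genes), with a lowest adjusted p of 0.9.

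The intervals bound the differences of the representative probe sets, of which 55 lay below the median level of all probe sets. The 95% interval of the log2 difference lay wholly within 1 of 0 for 74 genes in Western plus DHA against Control, 74 in Western plus DHA against Western and 75 in Western against Control. It lay within 0.5 of 0 for 46, 54 and 49 genes in the same order of comparisons. On the representatives, the single gene outside the wider bound in both comparisons with Western plus DHA was Kcnk3. Over all 126 probe sets, 122, 123 and 126 lay within the wider bound in the same order. In Western plus DHA against Control, intervals of further probe sets of Kcnip2 (-1.51 to -0.58) and Kcnj11 (-1.18 to -0.2) also passed it. The median difference over the 75 genes was 0.07, 0.04 and 0.02, beside 0.03, 0.01 and 0.01 over all genes. The median SD over the 6 arrays was 0.144 for the potassium channel genes and 0.146 for all genes.

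Facts of the arrays that bear on these values are few. All 11 measured markers of ventricular muscle lay above 5.34, the median of all probe sets, with mean log2 levels of 13.26 to 13.39 on the 6 arrays. All 6 measured atrial markers also lay at or above it, so these levels do not tell ventricle from other heart tissue. Western plus DHA 2 and Control 1 stood apart: they held the highest or lowest of the 6 values for 49.3% and 45.3% of the potassium channel genes, and for 49.0% and 52.2% of all genes. The difference between 3' and 5' control probe sets, a measure of RNA or label length, was largest in Control 1 for Gapdh (0.68, against 0.30 to 0.47 elsewhere) and for the spiked poly-A controls (1.74, against 1.43 to 1.46). For beta-actin it was largest in Western plus DHA 1 (1.87), with 1.82 in Control 1 and 1.48 to 1.54 elsewhere. Of all genes below the median level 72.2% had a difference above 0 in Western plus DHA against Control, and of those at or above it 48.6%. Among the potassium channel genes 55 lay below the median level and 20 at or above it, and the part of level, array or RNA ends in the differences below was not tested. Fewer cells of a type and less RNA per cell cannot be told apart in this whole tissue.

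**Figure D1:**
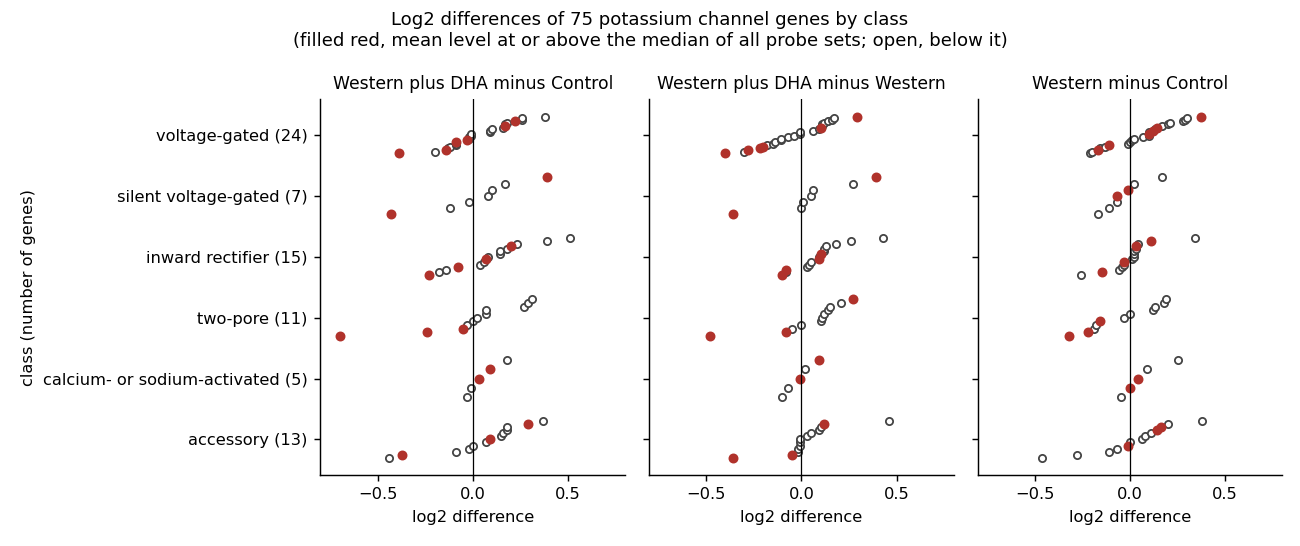
Log2 differences of the 75 potassium channel genes (horizontal axis) by class (vertical axis) for Western plus DHA minus Control, Western plus DHA minus Western and Western minus Control. Each point is a gene, filled red where its mean is not below the median over probe sets, and all points lie between -0.70 (Kcnk3) and 0.51 (Kcnj6).

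Kcnip2 encodes KChIP2, the accessory subunit that brings Kv4 pores to the surface and is needed for the fast transient outward current in mouse heart. Its representative probe set read 11.41 and 11.04 in Western plus DHA, 11.48 and 11.68 in Western, and 11.77 and 11.42 in Control. Both Western plus DHA arrays lay below all 4 others, the first by a narrow margin below Control 2. The difference was -0.37 ± 0.179 against Control (limma adjusted p = 0.575) and -0.36 ± 0.179 against Western (adjusted p = 0.983). A second Kcnip2 probe set, named here after its values were seen, gave 7.96 and 7.55 in Western plus DHA, 8.48 and 8.78 in Western, and 9.02 and 8.57 in Control. There the gap between Western plus DHA and the other diets was wider than the spread within any diet, with differences of -1.04 ± 0.203 against Control (adjusted p = 0.522) and -0.88 ± 0.203 against Western (adjusted p = 0.983). Western and Control overlapped on it, with a difference of -0.17. The remaining, dim probe set differed by 0.08 and 0.04 and its diets overlapped.

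Leaving out arrays changed the size of the Kcnip2 differences. Against Control, the representative moved to -0.18 without Western plus DHA 2 and to -0.01 without Western plus DHA 2 and Control 1 together, while the second probe set stood at -0.61 without both. The second probe set ranged between -1.27 and -0.82 against Control when single arrays were left out, and between -1.08 and -0.67 against Western, where the representative was -0.17 without Western plus DHA 2. The authors' deposited table lists a log2 difference of -1.04 against Control for it, with an adjusted p of 0.503. It is the only potassium channel probe set on the authors' deposited list of 66.

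The Kcnip2 promoter is shown because that gene carried the smallest unadjusted p of any potassium channel probe set, the Kcng2 promoter because that silent subunit was lower in the same arrays, and the Kcne1 promoter because that gene had the smallest p over the 3 diets. Sequences are from RefSeq on build GRCr8, 250 bases before to 50 after the gene's start, 5′ to 3′. Capitals mark a GC-box motif, whose letters are GGGCGG, and a shorter box motif, whose letters are CACCC, each searched on both strands. The 2 motifs do not overlap in these windows.
Kcnip2, chr1:254613849-254614148, minus strand: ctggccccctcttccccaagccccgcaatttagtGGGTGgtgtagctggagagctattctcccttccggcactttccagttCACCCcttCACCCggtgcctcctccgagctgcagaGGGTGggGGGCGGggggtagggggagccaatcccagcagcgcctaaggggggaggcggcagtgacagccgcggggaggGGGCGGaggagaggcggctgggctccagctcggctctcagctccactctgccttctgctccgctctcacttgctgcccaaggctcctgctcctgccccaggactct
Kcng2, chr18:76083639-76083938, minus strand: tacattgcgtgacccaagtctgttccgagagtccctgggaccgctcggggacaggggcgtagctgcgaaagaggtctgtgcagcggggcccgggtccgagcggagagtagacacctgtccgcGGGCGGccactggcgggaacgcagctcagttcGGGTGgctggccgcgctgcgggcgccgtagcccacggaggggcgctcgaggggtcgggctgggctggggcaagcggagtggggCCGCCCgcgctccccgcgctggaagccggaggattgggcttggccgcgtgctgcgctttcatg
Kcne1, chr11:45076984-45077283, minus strand: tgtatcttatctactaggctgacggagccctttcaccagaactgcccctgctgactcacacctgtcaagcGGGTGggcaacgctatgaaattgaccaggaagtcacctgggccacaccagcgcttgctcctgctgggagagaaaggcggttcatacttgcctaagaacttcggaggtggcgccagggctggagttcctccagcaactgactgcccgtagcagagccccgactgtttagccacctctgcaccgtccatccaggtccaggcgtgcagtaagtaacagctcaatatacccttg
The Kcnip2 window held 2 GC boxes and 4 CACCC boxes, the Kcng2 window 2 and 1, and the Kcne1 window 0 and 1. TATAAA was in none of the 3 windows, in 2 of 52 potassium channel promoters and in 14.2% of all. Promoters of 52 of the 75 genes were in the table, and GGGCGG was in 30 of them (57.7%), beside 33.1% of all 33469 promoters of this length. CACCC was in 36 of the 52 (69.2%) and in 54.9% of all. The potassium channel shares count 1 window per gene and the shares of all count every window, so they are not like for like.

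The pores of the transient outward current did not differ in 1 direction. Kcnd3, a Kv4 pore of the fast current, read 6.59 and 6.54 in Western plus DHA, 6.75 and 6.77 in Western, and 6.58 and 6.73 in Control. Kcnd2, the other Kv4 pore of rodent ventricle, read 6.61 and 6.64 in Western plus DHA, 6.22 and 6.46 in Western, and 6.31 and 6.59 in Control. Against Western, Western plus DHA was therefore lower on both arrays for Kcnd3 (-0.20 ± 0.123) and higher on both for Kcnd2 (0.29 ± 0.148), and neither passed the test. A second Kcnd3 probe set, about as bright, differed by -0.17 against Western with overlap. A second Kcnd2 probe set differed by 0.16 against Western. Against Control it differed by -0.13, opposite to 0.17 for the representative. Kcna4, the Kv1 pore of the slowly recovering transient outward current, differed by -0.28 ± 0.171 against Western and by -0.14 against Control, and its second Control value equalled the lower Western plus DHA value of 5.33. Kcnd1, a further Kv4 pore and dim here, read 4.07 and 3.90 in Western plus DHA against 4.30 and 4.26 in Western. Kcne3, an accessory subunit of several voltage-gated pores, differed by 0.10 against Western and 0.00 against Control. Of the 8 genes listed for this current, with the peptidase-like partners Dpp6 and Dpp10, 0 passed the test, and 3 had a difference above 0 against Control and 4 against Western.

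**Figure D2:**
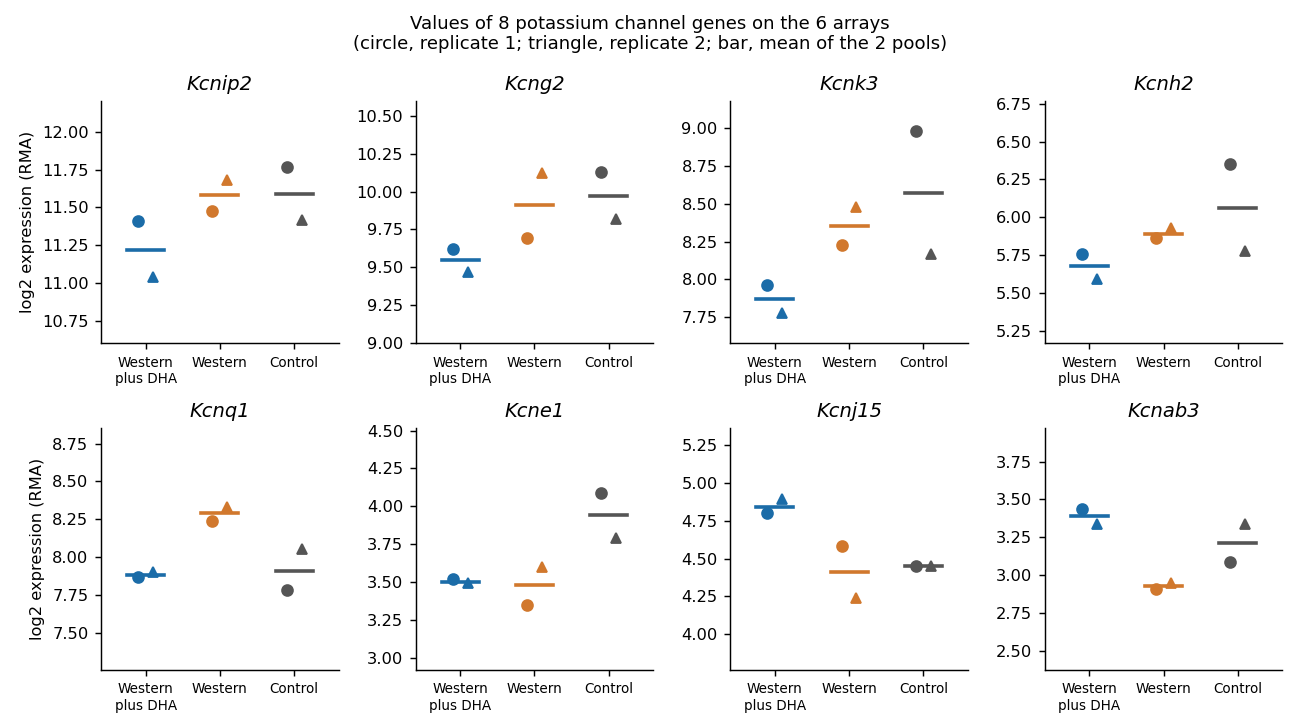
Log2 expression (vertical axis, each panel spanning the same 1.6 log2 units) of 8 potassium channel genes on the 6 arrays, by diet (horizontal axis), with circles for replicate 1, triangles for replicate 2 and bars for the mean of 2 pools. For Kcnip2, Kcng2, Kcnk3 and Kcnh2 both Western plus DHA arrays lie lowest, for Kcnq1 both Western arrays lie highest, and for Kcne1 both Control arrays lie highest.

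The slow delayed rectifier is formed by a pore and an accessory subunit, and their values did not follow the same order of diets. Kcnq1, the pore, read 7.87 and 7.90 in Western plus DHA, 8.24 and 8.33 in Western, and 7.78 and 8.05 in Control. Both Western arrays were the highest of the 6, with 0.37 ± 0.136 in Western against Control (limma adjusted p = 1) and -0.40 ± 0.136 in Western plus DHA against Western (adjusted p = 0.983). The first was 0.24 without Control 1. Western plus DHA and Control overlapped (-0.03 ± 0.136). Kcne1, the accessory subunit of that pore and dim here, read 3.52 and 3.49 in Western plus DHA, 3.35 and 3.60 in Western, and 4.09 and 3.79 in Control. Both Control arrays were the highest, with -0.44 ± 0.151 in Western plus DHA against Control (adjusted p = 0.562) and -0.46 ± 0.151 in Western against Control (adjusted p = 1). Without Control 1, the array with the higher value, these differences were -0.29 and -0.31. Each of the 2 genes had 1 probe set, so no second measurement was at hand.

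Kcnh2, the ERG pore of the rapid delayed rectifier, read 5.76 and 5.59 in Western plus DHA, 5.86 and 5.93 in Western, and 6.35 and 5.78 in Control. Both Western plus DHA arrays were the lowest, but the 2 Control pools were farther apart than the difference of -0.39 ± 0.188, which was -0.10 without Control 1 and -0.67 without Control 2. Kcna5, a pore of the ultrarapid current, read 4.73 and 4.62 in Western plus DHA, 4.74 and 4.68 in Western, and 4.10 and 4.73 in Control, where Control 1 alone was low. For the remaining listed delayed rectifier genes the differences lay between -0.20 and 0.18: in Western plus DHA against Control, Kcna2 by -0.20, Kcnb2 by -0.09, Kcnc1 by 0.17, the accessory Kcne2 by -0.02 and the Kv beta subunits Kcnab1 and Kcnab2 by 0.18 and 0.07. Kcna2 had a second probe set, about as bright, that differed by 0.31 in the opposite direction. Kcnab1 also had a second probe set about as bright, which differed by -0.16 against Control. In Western against Control that probe set differed by -0.37, beside 0.20 for the representative. Of 10 measured genes of the group 0 passed, with a median difference of -0.02 against Control and -0.02 against Western.

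Of the remaining voltage-gated pores Kcnq5, which forms a slow, subthreshold current in neurons and smooth muscle, read 5.16 and 5.15 in Western plus DHA, 5.32 and 5.34 in Western, and 5.02 and 5.08 in Control. The 3 diets did not overlap, with 0.28 ± 0.118 in Western against Control, but its other probe sets differed by -0.11 and 0.08 there. Kcnc2 had the largest SD of its class over the arrays and Kcnq3 the smallest. Kcnc4 differed by 0.21 and Kcnh5 by -0.20 in Western against Control, both without overlap and both short of the test. Over the 24 pores the median difference was -0.01 against Control and -0.03 against Western in Western plus DHA, and 0.10 in Western against Control.

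No inward rectifier of the resting potential passed the test. Kcnj2, the main pore of the cardiac inward rectifier and dim on this array, read 3.21 and 3.36 in Western plus DHA, 3.10 and 2.95 in Western, and 3.05 and 3.05 in Control. Its Western plus DHA arrays were the highest, at 0.23 against Control and 0.26 against Western, and did not pass the test. The related pores Kcnj12, Kcnj4 and Kcnj14 differed by -0.18, 0.18 and -0.14 against Control. Kcnj15, a Kir4 pore best known from epithelia, read 4.80 and 4.89 in Western plus DHA, 4.58 and 4.24 in Western, and 4.45 and 4.45 in Control. That gave 0.39 ± 0.146 against Control (adjusted p = 0.562) and 0.43 ± 0.146 against Western (adjusted p = 0.983), but its dimmer second probe set differed by 0.14 and -0.17. Without Western 2 the difference against Western was 0.26. Kcnj6, a G-protein-gated pore of neurons and dim here, gave the largest difference above 0, 0.51 ± 0.206 against Control. It rested on Control 1, whose value of 2.40 lay below 3.15 and 3.33 in Western plus DHA and 3.05 in Control 2, and the difference was 0.19 without it. The other Kcnj6 probe sets, also dim, differed by 0.10, -0.16 and 0.16 against Control. Inward rectifiers lay above 0 in 11 of 15 genes against Control (73.3%, beside 56.7% of all genes) and 12 of 15 against Western (80%, beside 53.3%). Of these 15 genes 11 are dim, and of all genes below the median level 72.2% lay above 0 against Control and 60.4% against Western.

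The channels gated by metabolism and by acetylcholine gave no gene that passed the test. Kcnj11, the Kir6 pore of the cardiac ATP-sensitive channel, read 9.55 and 9.60 in Western plus DHA, 9.62 and 9.73 in Western, and 9.62 and 9.69 in Control. The spread was the smallest of the inward rectifiers, and the difference against Control was -0.08 ± 0.121 although both arrays were lower. Its 2 other probe sets differed by -0.69 ± 0.213 and -0.48 ± 0.192 against Control, again with no overlap and short of the test (adjusted p = 0.562 for each). Without Control 1 these were -0.39 and -0.19, and without Control 2 the larger was -1.0 and the smaller -0.78. Kcnj8, the Kir6 pore of vascular muscle, read 8.55 and 8.04 in Western plus DHA, 8.24 and 8.15 in Western, and 8.27 and 8.17 in Control. Its 2 Western plus DHA pools held both the highest and the lowest value, and the difference against Control was 0.07 ± 0.174. Among its sulphonylurea receptor partners, Abcc9 of heart and smooth muscle differed by -0.03 and Abcc8 by -0.31 against Control. Kcnj3 and Kcnj5, which together form the acetylcholine-activated channel of atrium and pacemaker tissue, differed by 0.20 and -0.23 against Control. The 2 other Kcnj3 probe sets, with mean levels of 5.57 and 5.16, gave -0.23 and 0.12, so its probe sets did not share a direction. Kcnj5 read 7.31 and 7.40 in Western plus DHA, 7.44 and 7.43 in Western, and 7.48 and 7.69 in Control, and its second probe set gave -0.26. Beside these 2 genes, the mean level of 6 atrial muscle markers was 8.94 to 9.12 in Western plus DHA, 7.65 to 9.27 in Western and 8.44 to 8.52 in Control, and its part was not tested.

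Kcnk3, the acid-sensitive two-pore channel TASK of background current, had the largest difference of all 75 genes. It read 7.96 and 7.78 in Western plus DHA, 8.23 and 8.48 in Western, and 8.98 and 8.17 in Control. Both Western plus DHA arrays were the lowest and Control 1 was well above the rest, with -0.70 ± 0.243 against Control (limma adjusted p = 0.562) and -0.48 ± 0.243 against Western (adjusted p = 0.983). Against Control it was -0.29 without Control 1, -1.11 without Control 2, and -0.20 without Control 1 and Western plus DHA 2 together. Another probe set showed the same order, with 4.88 and 4.53 in Western plus DHA, 5.45 and 5.76 in Western, and 6.26 and 5.34 in Control, a difference of -1.09 ± 0.280 against Control. Leaving out Control 1 gave -0.63, and leaving out Western plus DHA 2 as well gave -0.46. The third probe set differed by 0.11 against Control and -0.22 against Western.

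Kcnk2, the stretch- and lipid-sensitive channel TREK that polyunsaturated fatty acids are known to open, read 7.47 and 7.62 in Western plus DHA, 7.26 and 7.29 in Western, and 7.63 and 7.55 in Control. Both Western arrays were the lowest, with 0.27 ± 0.124 in Western plus DHA against Western (adjusted p = 0.983) and -0.32 ± 0.124 in Western against Control (adjusted p = 1). Its second probe set differed by 0.06 and -0.14 in these comparisons. Kcnk6 had the widest gap between pools of a diet, 6.92 and 6.09 in Control, and its diets overlapped. Kcnk13 was the steadiest of all, with an SD of 0.043 over the 6 arrays. Kcnk12 differed by 0.31 in Western plus DHA against Control, and by 0.17 without Western plus DHA 2. Kcnk1, Kcnk4 and Kcnk5 differed by 0.07, 0.07 and -0.03 against Control.

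Silent voltage-gated subunits held 2 genes at or above the median level, and they lay on opposite sides. Kcng2, a silent subunit known from heart, read 9.62 and 9.47 in Western plus DHA, 9.69 and 10.12 in Western, and 10.13 and 9.82 in Control. All 4 other arrays were above both of Western plus DHA, with -0.43 ± 0.178 against Control (adjusted p = 0.563) and -0.36 ± 0.178 against Western (adjusted p = 0.983). A second probe set gave nearly the same differences, -0.35 ± 0.159 and -0.36 ± 0.159, and the remaining, dim one gave 0.00 and 0.00. Against Western the representative was -0.14 without Western 2 and -0.57 without Western 1. Against Control it was -0.27 without Control 1 and -0.20 without Control 1 and Western plus DHA 2 together. Kcns3, another silent subunit, read 7.13 and 6.78 in Western plus DHA, 6.56 and 6.56 in Western, and 6.36 and 6.78 in Control, where the higher Control value tied with the lower Western plus DHA value to 2 decimals. Its differences were 0.39 ± 0.177 against Control and 0.39 ± 0.177 against Western, and they were 0.18 against Control without Control 1 and 0.22 against Western without Western plus DHA 1. Kcns2 had the smallest SD of the class.

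Calcium- and sodium-activated channels gave no gene under an unadjusted p of 0.05. Kcnma1, the large-conductance pore, differed by 0.18 against Control and -0.07 against Western. Its accessory subunits Kcnmb1 of smooth muscle and Kcnmb4 of neurons differed by -0.09 and 0.16 against Control. Kcnn1 and Kcnn3, small-conductance pores, differed by 0.09 and -0.03. Kcnn4, the channel of red cells and lymphocytes, read 3.27 and 2.92 in Western plus DHA, 3.16 and 3.23 in Western, and 3.27 and 2.94 in Control. Beside that overlap, the 5 measured erythroid markers had a median difference of 0.51 in Western plus DHA against Control. Kcnn2 is not analysed here.

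Among the remaining accessory subunits Kcnab3, a Kv beta subunit and dim, gave the smallest unadjusted p of the representatives. It read 3.44 and 3.34 in Western plus DHA, 2.91 and 2.95 in Western, and 3.09 and 3.34 in Control. The low values were the Western ones, with 0.46 ± 0.135 in Western plus DHA against Western (adjusted p = 0.983) and 0.18 ± 0.135 in Western plus DHA against Control. Kcnip1, a KChIP of neurons, differed by 0.37 ± 0.160 in Western plus DHA against Control and by 0.38 ± 0.160 in Western against Control, while its 2 dimmer probe sets stayed within 0.11 of 0 in those comparisons. Without Western 1 the difference between Western and Control was 0.19.

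Set out by order alone, Western plus DHA stood below Western on both arrays for 15 of 75 genes (20%), beside 15.9% of all genes, and above it for 18 (24%), beside 20.9%. Among the 20 genes at or above the median level, a split read after the values were seen, 10 were lower on both arrays (50%), beside 18.4% of all genes of that level. These were Kcna4, Kcnd3, Kcnh2 and Kcnq1 of the voltage-gated pores, Kcng2 of the silent subunits, Kcnj5 and Kcnj11 of the inward rectifiers, Kcnk3, and the accessory subunits Kcne4 and Kcnip2. The 4 that were higher on both arrays were Kcnd2, Kcnj3, Kcnk2 and Kcns3 (20%, beside 20.7%). Of the 10, Kcne4, Kcnj5 and Kcnj11 differed by no more than 0.10, and only Kcnq1 had an unadjusted p under 0.05. Western plus DHA 2 was the lowest array for 9 of the 20 genes, and for 3127 of the 9308 genes of that level. With Western plus DHA 1 alone 11 of 20 lay below both Western arrays (29.1% of all genes of that level), and with Western plus DHA 2 alone 13 of 20 (46.6%).

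Against Control, 12 of 75 genes were lower on both arrays (16%, beside 14.3% of all genes) and 20 higher (26.7%, beside 22.3%). Of the 20 at or above the median level 6 were lower (30%, beside 18.2%), namely Kcng2, Kcnh2, Kcnip2, Kcnj11, Kcnj5 and Kcnk3, and 5 were higher (25%, beside 17.2%). With Western plus DHA 1 against Control 2 alone, 11 of the 20 were lower, beside 44.3% of genes of that level. Summed linear levels of the 11 ventricular muscle markers were also lowest in Western plus DHA, with 119200 and 115100 in Western plus DHA, 121300 and 122500 in Western, and 124700 and 120800 in Control. Of these markers 2 had a difference above 0 against Control and 1 against Western. Summed levels of the 8 smooth muscle markers were 6009 and 5417 in Western plus DHA, 6261 and 6981 in Western, and 8593 and 6510 in Control. The median difference against Control was -0.07 for the ventricular muscle markers and -0.34 for the smooth muscle markers. For the fibroblast, endothelial and epicardial marker lists it was 0.13, 0.17 and 0.42. The part of any of these marker lists in the channel values was not tested. In Western against Control 13 of 75 genes were higher on both arrays (16.6% of all genes) and 7 lower (11.9%).

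**Figure D3:**
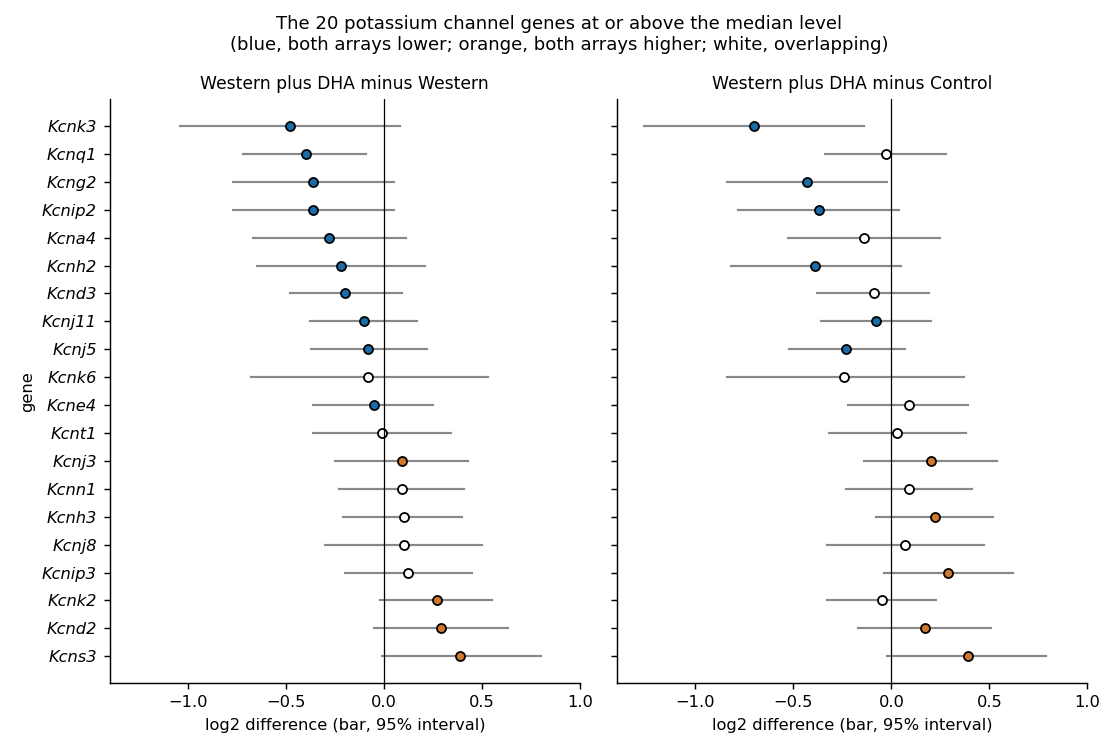
Log2 differences with 95% intervals (horizontal axis) of the 20 potassium channel genes at or above the median level (vertical axis) for Western plus DHA minus Western and Western plus DHA minus Control. Blue points, lower on both arrays, are 10 in the first panel and 6 in the second, and orange points, higher on both arrays, are 4 and 5.

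**Figure D4:**
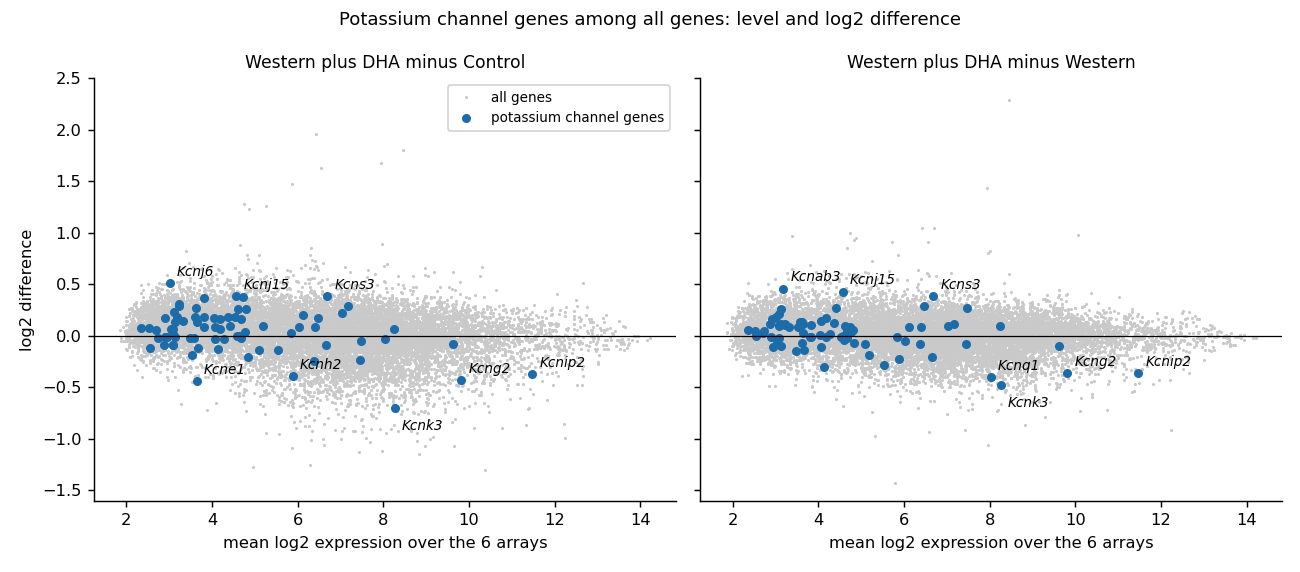
Mean log2 expression over the 6 arrays (horizontal axis) against the log2 difference (vertical axis) for all 14217 genes in grey and the 75 potassium channel genes in blue, for Western plus DHA minus Control and Western plus DHA minus Western. The potassium channel genes lie inside the cloud of all genes.

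Probe sets of 1 gene often disagreed in sign. The 31 genes with over 1 probe set had 51 further probe sets, of which 34 shared the sign of the representative in Western plus DHA against Control, 27 in Western plus DHA against Western and 31 in Western against Control. Most of the 51 were dim. Those at or above the median level shared the sign in Western plus DHA against Western, except for Kcnj3. In Western plus DHA against Control, those of Kcnd2 and Kcnj3 and the brighter of Kcnk3 did not. In Western against Control, those of Kcng2, Kcnj3, Kcnj5 and Kcnj11 and the brighter of Kcnk3 did not. None of the 51 passed the test, and 6, 3 and 4 lay under an unadjusted p of 0.05. Over all 126 probe sets the shares were 8.73%, 4.76% and 7.14%, beside 8.45%, 3.52% and 1.98% of all genes. For Kcnip2, Kcnk3 and Kcnj11 a dimmer probe set differed more than the representative, and for Kcnip2, Kcnk3 and Kcng2 a further probe set differed by at most 0.11 against Control.

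**Figure D5:**
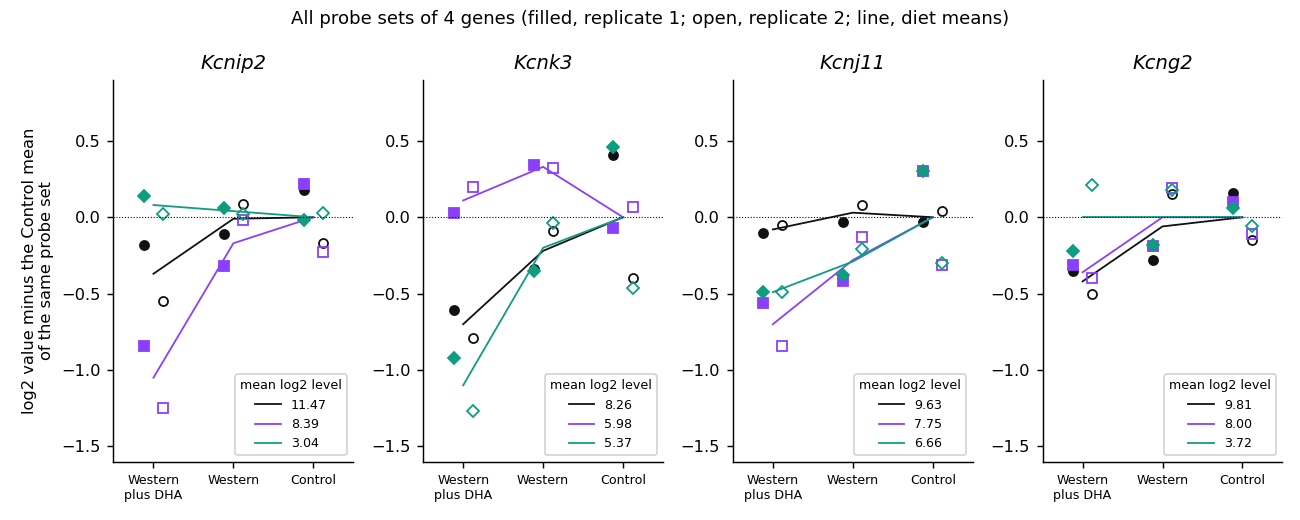
Log2 values minus the Control mean of the same probe set (vertical axis) by diet (horizontal axis) for all probe sets of Kcnip2, Kcnk3, Kcnj11 and Kcng2, with filled symbols for replicate 1, open symbols for replicate 2, lines through diet means and the mean level of each probe set in the key. Western plus DHA lies lowest for 2 probe sets of each of Kcnip2, Kcnk3 and Kcng2 and for all 3 of Kcnj11, where the brightest differed least.

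Regulators, partners and anchors of these channels gave no call either. Of 27 listed genes 25 were measured, 0 passed the test in any comparison, and 1 lay under an unadjusted p of 0.05 (4%, beside 8.45% of all genes). This was Sgk1, a kinase that raises the surface number of several channels, with 8.27 and 8.23 in Western plus DHA, 8.41 and 8.42 in Western, and 8.57 and 8.52 in Control, a difference of -0.29 ± 0.118 against Control (limma adjusted p = 0.562). Irx5, a homeobox repressor of Kcnd2 in mouse ventricle, read 5.45 and 5.61 in Western plus DHA, 5.88 and 5.85 in Western, and 6.25 and 5.67 in Control. It differed by -0.43 ± 0.189 against Control, and its Control pools were farther apart than that. Klf15, a clock-linked factor that drives Kcnip2 in mouse heart, read 8.59 and 8.57 in Western plus DHA, 8.51 and 8.50 in Western, and 8.95 and 8.53 in Control, where Control 1 alone stood apart.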

How the data were processed

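The authors deposited log2 expression values of 31099 probe sets on 6 arrays, made with RMA per the submitters' processing notes, which name R 2.11.0. RMA brings all arrays to 1 distribution, which hides any difference in total RNA, and array number limits the precision. Steps before RMA and the test behind the authors' deposited p-values are not stated in any label. The authors' deposited log2 differences of the 75 genes matched the ones below within 5e-09.

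Groups came from the labels, and the labels name no batch. After 57 control probe sets were left out, limma 3.58.1 in R 4.3.3 was fitted to 31042 probe sets with 1 mean per diet over all 6 arrays (3 residual and 5.28 prior degrees of freedom, median standard error 0.144). P-values were adjusted by Benjamini-Hochberg across the probe sets tested, with a threshold of 0.05; unadjusted p-values are from the same fit. With 2 pools against 2, an exact permutation test cannot reach 0.05. Only the spread between pools enters the p-values. Dim means a 6-array mean below 5.34, the median of all probe sets. Symbols came from the platform annotation, with RefSeq GRCr8 for names and promoters.

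The members and lists were chosen with earlier results of these data known. Named genes are those of listed cardiac currents, per comparison and direction the 5 with the smallest unadjusted p whose arrays do not overlap and the largest difference, and per class the largest and smallest SD. Values of further probe sets were chosen after they were seen. The fit was tested on simulated data.

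The alternatives were removal of dim probe sets, a block for replicate number, 3 other scalings, an intensity trend, a robust prior, array weights, 4-array fits, representative probe sets alone, averaging the probe sets of a gene, an adjusted p under 0.1, and leaving out each array. Leaving out Control 1 and Western plus DHA 2 together was chosen after seeing the data, as was the count of genes lower on both arrays with an array left out.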

Additional observations from a re-analysis of the deposited data

How the results depend on the processing

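No potassium channel gene passed the test in any comparison under any alternative run, so the 3 counts of 0 did not change. Counts under an unadjusted p of 0.05 and medians near 0 did. In Western plus DHA against Control, 5 genes became 1 without dim probe sets and 3 with array weights. The shares of all genes in these settings were 8.45%, 7.42% and 6.07%. Array weights came out equal for both arrays of a diet. That setting therefore weighted diets and could not single out Control 1 or Western plus DHA 2. The median of 0.07 became -0.04 without dim probe sets, 0.01 with quantile normalization again, 0.00 with cyclic loess, 0.00 without both Western plus DHA 2 and Control 1, and 0.02 to 0.10 without single arrays. In Western plus DHA against Western, 3 genes became 1 without dim probe sets and 6 in a fit of the 4 arrays alone. The shares of all genes were 3.52%, 2.68% and 4.7%. The median of 0.04 became -0.06, 0.01 and -0.01 without dim probe sets, with quantile normalization again and without the same 2 arrays, and -0.01 to 0.08 without single arrays. In Western against Control, 5 genes became 2 with the replicate block, 2 without dim probe sets and 2 with all probe sets of a gene averaged. The shares of all genes were 1.98%, 1.67%, 1.01% and 2.18%. The median of 0.02 became -0.01 with cyclic loess and stayed between 0.01 and 0.04 without single arrays. Without dim probe sets only 20 genes were tested; for the other changes the cause was not tested. In Western plus DHA against Control and in Western against Control, the largest counts came without Control 2 (12 and 10). The smallest there came without Western plus DHA 2 (1) and without Western 1 (0). The shares of all genes moved the same way, above the main fit without Control 2 and below it without Western plus DHA 2 or Western 1. These fits leave a diet with 1 array, so the counts cannot single out potassium channel genes.

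The 10 genes at or above the median level that lay below Western on both arrays were 10 to 13 without single arrays, beside 25.4% to 46.6% of all genes of that level (18.4% with all arrays). The 6 below Control were 8 to 10 without single arrays, beside 26.8% to 44.0% of all such genes (18.2% with all arrays), among them 10 (44.0%) without Western plus DHA 1, and 11 (44.3%) without both Western plus DHA 2 and Control 1. Fewer arrays make the order easier to meet.

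Of 50 named genes, 18 moved by over 1 SD in Western plus DHA against Control without Control 1, 18 without Control 2, and 25 without both Western plus DHA 2 and Control 1. The labels do not say that equal replicate numbers pair pools, and the deviations of replicate 1 correlated across probe sets with r = -0.206 (Western and Control), 0.202 (Western plus DHA and Control) and -0.228 (Western plus DHA and Western). Array number, and 55 of 75 genes below the median level, limit the precision.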
